A study of Mus musculus with 415 samples.

Results

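The pluripotency loci Pou5f1, Nanog, Klf4, Esrrb and Sall4 were followed in single cells by ATAC-seq, in which the Tn5 transposase inserts adapters into accessible DNA. Members were chosen by position alone, as every row of the deposited accessibility table that overlaps 1 of 5 windows on the mouse build mm9. The windows run from 35630000 to 35655000 on chromosome 17 for Pou5f1, from 122590000 to 122680000 on chromosome 6 for Nanog, from 55460000 to 55560000 on chromosome 4 for Klf4, from 87690000 to 87880000 on chromosome 12 for Esrrb and from 168560000 to 168610000 on chromosome 2 for Sall4. They hold 10 of the 23180 regions in the table. The Klf4 and Sall4 windows hold 4 each, the Pou5f1 and Esrrb windows 1 each, and the Nanog window 0. Regions are numbered along each chromosome.

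Every sample is a single cell, and all cells form 1 group. They are R1 mouse embryonic stem cells that grew in serum replacement with LIF, formed embryoid bodies in hanging drops over 48 hours, and then spent 4 days in medium with retinoic acid, at 0.5 mM as the labels write it. A Fluidigm C1 instrument served for capture and transposition, and libraries received 13 further PCR cycles. The labels name no separate cultures, and no untreated cells were analysed here. The data are therefore 1 sample in the statistical sense: no test across replicates was possible, no p-value was made from cells, and a change of these loci with retinoic acid cannot be measured. Intervals are exact (Clopper-Pearson) 95% intervals and cover the counting of cells only.

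Pluripotent cells of the mouse embryo, and the stem cell lines made from them, keep their state through transcription factors that bind each other's genes. Pou5f1 encodes OCT4, a POU-domain factor without which the pluripotent inner cell mass does not form. Nanog encodes a homeodomain factor, Klf4 a zinc finger factor of the Krüppel-like family used in reprogramming to pluripotency, Esrrb an orphan nuclear receptor, and Sall4 a zinc finger factor that acts upstream of Pou5f1. Retinoic acid is known to drive stem cells out of this state. Outside it, Klf4 is also used in skin and gut epithelium, Esrrb in trophoblast, and Sall4 in extraembryonic endoderm and germ cells.

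The letters of the listed regions are not shown, because no mm9 genome was used here. The start sites of these genes are shown instead, from RefSeq sequences on the later build GRCm38.p6, to let the reader see how the 4 members with an entry (Klf4, Pou5f1, Esrrb and Nanog) differ in base composition. Each line gives the 250 bases before the most upstream listed start, 5′ to 3′ along the gene, with CpG dinucleotides in capitals. The lines stand for chr4:55532476-55532725 on the minus strand and chr17:35505782-35506031, chr12:86360867-86361116 and chr6:122707239-122707488 on the plus strand. Those positions are on GRCm38.p6 and cannot be set against the mm9 positions of the regions, so whether a listed region covers a start site was not determined.
Klf4: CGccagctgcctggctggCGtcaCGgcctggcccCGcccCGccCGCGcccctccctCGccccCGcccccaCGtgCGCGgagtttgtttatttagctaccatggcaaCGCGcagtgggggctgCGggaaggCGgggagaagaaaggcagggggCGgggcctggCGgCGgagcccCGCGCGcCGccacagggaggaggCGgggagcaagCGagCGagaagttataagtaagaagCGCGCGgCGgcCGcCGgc
Pou5f1: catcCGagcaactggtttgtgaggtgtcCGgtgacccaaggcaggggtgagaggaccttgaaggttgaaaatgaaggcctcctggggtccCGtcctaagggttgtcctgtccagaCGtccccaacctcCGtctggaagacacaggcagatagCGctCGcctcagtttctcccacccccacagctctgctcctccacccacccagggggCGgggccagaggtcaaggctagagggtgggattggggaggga
Esrrb: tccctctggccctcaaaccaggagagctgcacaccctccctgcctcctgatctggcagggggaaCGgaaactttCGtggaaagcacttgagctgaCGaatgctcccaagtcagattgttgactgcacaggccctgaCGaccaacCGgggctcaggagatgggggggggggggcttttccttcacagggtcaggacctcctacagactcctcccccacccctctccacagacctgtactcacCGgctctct
Nanog: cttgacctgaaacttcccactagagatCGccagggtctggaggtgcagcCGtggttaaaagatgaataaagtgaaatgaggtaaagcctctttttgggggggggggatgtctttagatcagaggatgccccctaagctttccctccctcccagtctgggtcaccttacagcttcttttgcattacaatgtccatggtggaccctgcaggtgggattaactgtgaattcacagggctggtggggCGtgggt
The Klf4 stretch holds 32 CpG and is 74% G and C, which puts its CpG count above 95.4% of the 32841 start sites in the RefSeq table. Those of Pou5f1, Esrrb and Nanog hold 8, 6 and 3 CpG, against a median of 6 over the whole table. The GC box GGGCGG, searched on both strands, stands in the Klf4 stretch 4 times and in the Pou5f1 stretch 1 time. It is in neither the Esrrb nor the Nanog stretch, and it stands in 32.7% of all stretches of this length. The octamer core ATGCAAA, the letters that OCT4 is known to prefer, was searched on both strands and was found in these 4 members before Nanog only; 4.13% of all stretches hold it. In Nanog it lies on the opposite strand, shown in capitals with its surroundings.
Nanog: tacagcttctTTTGCATtacaatgtcc
These matches describe letters and not occupied sites. The second listed starts of Pou5f1 and Esrrb, with 6 and 3 CpG, hold neither motif.

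A median cell had 3928 open regions, with a range of 756 to 12267, and 4529 fragments, with a range of 791 to 25069. Open means a value above 0 for that region and cell, and a fragment is the signal of 1 read pair. No region of the table was open in fewer than 31 cells (7.47%), so rarer openings at these loci were not analysed here and an empty window does not show closed chromatin. No column of the table repeats another.

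Of the 5 windows, 4 held listed regions after 4 days of retinoic acid. Every region of the table was open in at least 31 cells, so a listed region is open in some cells by the make of the table. At least 1 of the 10 regions was open in 76.4% of cells (71.999% to 80.4%). Any region of the Klf4 window was open in 46.3% of cells (41.4% to 51.2%) and any of the Sall4 window in 45.3% (40.4% to 50.2%). The single regions of the Pou5f1 and Esrrb windows were open in 85 cells (20.5%, 16.7% to 24.7%) and 82 cells (19.8%, 16.03% to 23.9%). The higher shares of Klf4 and Sall4 rest on 4 regions each: with the most widely open region alone they were 27.5% and 22.4%. The intervals of Klf4 and Sall4 overlap each other, as do those of Pou5f1 and Esrrb. For whole windows they lie apart between these pairs. With the most widely open region alone, the intervals of all 4 loci overlap.

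Taken singly and before width is considered, the 10 regions had a median share near that of the whole table. Their median share of open cells was 16.1%, against 14.5% over all 23180 regions and 16.4% over the regions within 1000 kb outside the windows. Of the members, 6 lay above the table's median and 4 below it. In all, 9 of 10 were open in at least 10% of cells, where 73.1% of all regions were, 3 in at least 20%, where 33.5% were, 1 in at least 25%, where 22.6% were, and 0 in at least 50%, where 1.95% were. Wider regions are open more often in this table. All regions were divided by width into 4 classes of equal number. Against the median of the autosomal regions in their own class, 7 members were above and 3 below.

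**Figure D1:**
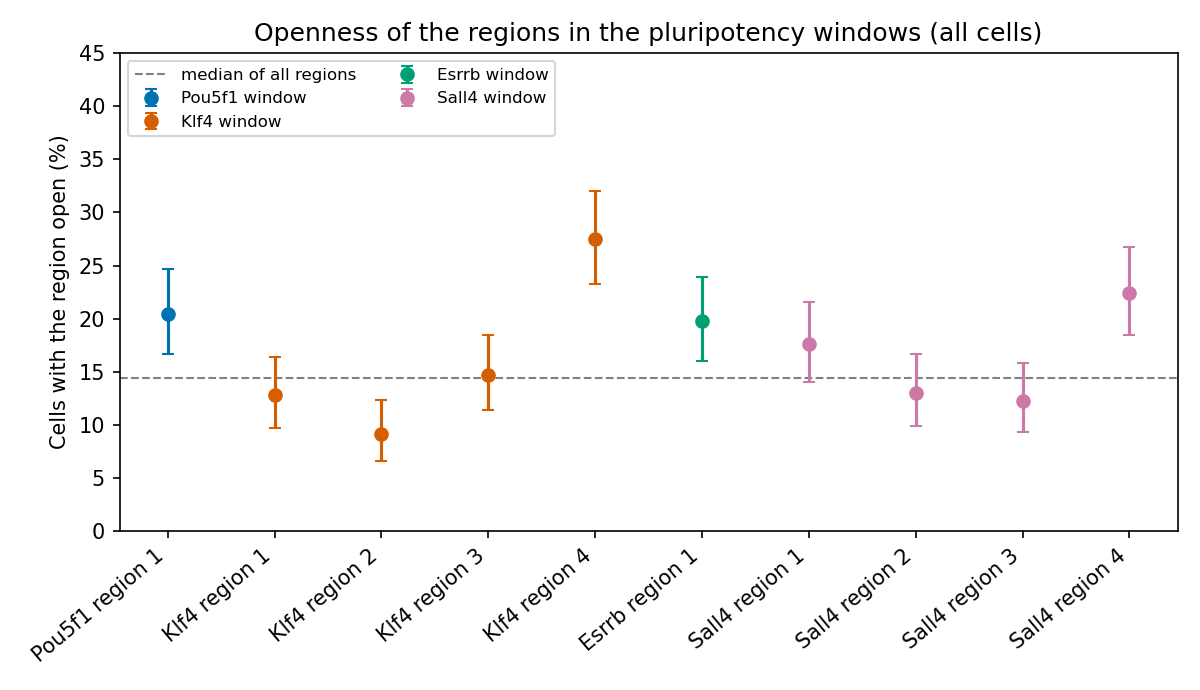
Share of all cells in which each of the 10 regions was open (vertical axis, percent), with exact 95% intervals as bars and the median of all regions as a dashed line. Klf4 region 4 is the highest at 27.5% and Klf4 region 2 the lowest at 9.16%.

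The number of regions in a window has to be read against how the table is spread over the genome. Nanog had no listed region in 90 kb. Its neighbours in the table were a region that ends at 122441923, 148.1 kb before the window, and was open in 56 cells (13.5%), and a region that starts at 122714470, 34.5 kb after it, and was open in 66 cells (15.9%). Of 26728 tiles of 90 kb along the autosomes, 55.2% hold no region either, so the empty Nanog window is no result about Nanog. The stretch without a region around Nanog was 272.5 kb, and 7.85% of autosomal gaps were at least as long. A gap that holds an empty window of 90 kb cannot be shorter than 90 kb. That it exceeds the median gap of 40.1 kb was therefore fixed by the empty window. Each gap is counted once here, although a given place falls more often in a long gap, so the 7.85% is no result about Nanog either. The Sall4 window was the most densely filled, with 4 regions in 50 kb, where 1.22% of tiles of that length hold at least 4. For Klf4, with 4 regions in 100 kb, that percentage was 5.8. At least 1 region stands in 31.9% of tiles of 50 kb and in 47.3% of tiles of 100 kb. The tiles were laid whether or not they hold a gene, while the windows were placed on genes. The percentages therefore do not say how unusual a window is among windows on genes. For the single regions in the 25 kb Pou5f1 and the 190 kb Esrrb windows, 19.6% and 61.7% of tiles of the same length hold at least 1.

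**Figure D2:**
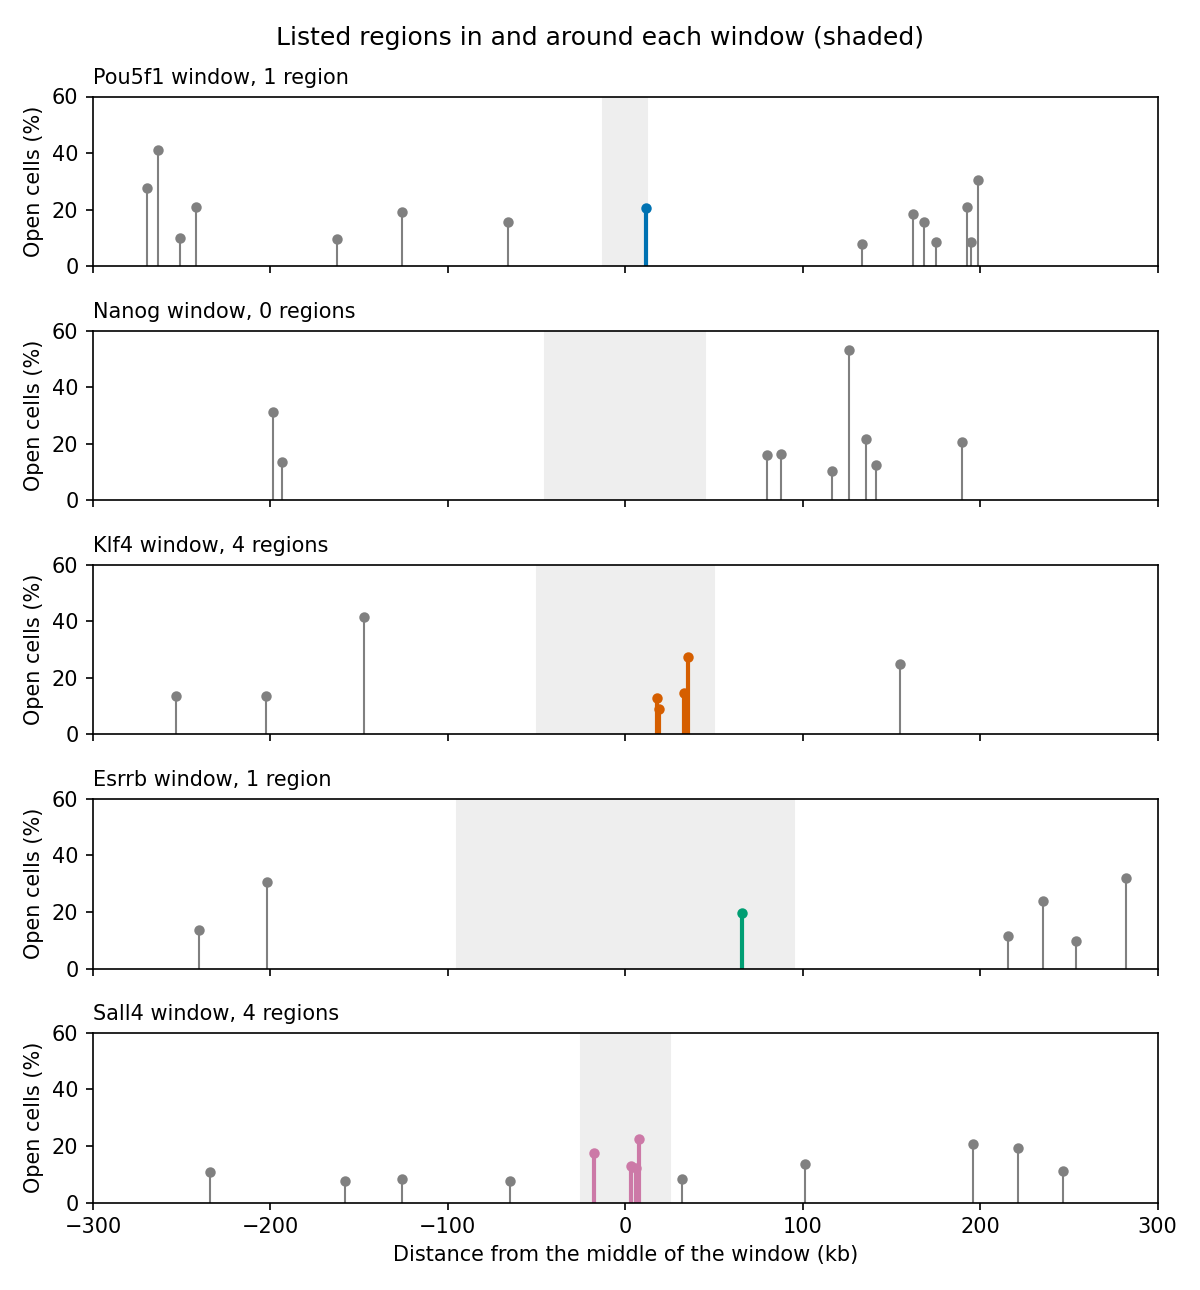
Regions of the table within 300 kb of the middle of each window, by distance in kb (horizontal axis) and share of cells open (vertical axis, percent). Regions in the shaded window are coloured and those outside it grey. The Nanog window is empty, the Pou5f1 region stands at the right edge of its window, and the Klf4 and Sall4 regions are grouped within 18.4 and 26.1 kb.

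At Pou5f1 the open region did not lie in the middle of the window. It spans 487 bp on chromosome 17 from 35653695 to 35654182 and ends 818 bp before the window's right edge. In the RefSeq gene table of the later build the next coding genes after Pou5f1 are Tcf19 and Cchcr1, on opposite strands. On that build the 250 bases before their most upstream starts run from 35516825 to 35517074 and from 35516799 to 35517048. These stretches overlap for most of their length, so they are largely 1 CpG-rich stretch read on both strands. Each reading holds 29 CpG, against 8 for Pou5f1. The stretch before the most upstream Pou5f1 start ends earlier on that build, at 35506031. On mm9 the middle of the region lies 11.4 kb after the middle of the Pou5f1 window. Which of the 3 genes the region belongs to was not tested, as no mm9 annotation was used. The region is therefore not read as a measure of Pou5f1, and its shares below are those of the window. In the 85 open cells its signal ran from 0.0676 to 4.53 fragments with a median of 1, and 26 of these cells (30.6%) held more than 1 fragment. In the remaining 330 cells it held none.

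The Esrrb region, on chromosome 12 from 87850459 to 87851046, is 587 bp wide and lies 160.5 kb after the start of its window. Its signal in the 82 open cells ran from 0.0338 to 4.797 fragments with a median of 1. More than 1 fragment was present in 30 of them (36.6%), the highest such percentage among the 10 regions, where the median region of the table had 24.2%.

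The 4 Klf4 regions form 2 close pairs. Klf4 region 4, on chromosome 4 from 55545039 to 55546078, is 1039 bp wide and was the most widely open member. It was open in 27.5% of cells (23.2% to 32.04%), at 0.0608 to 3.05 fragments with a median of 1. Klf4 region 3, from 55543012 to 55543592, was open in 61 cells (14.7%, 11.4% to 18.5%). Farther from these lie Klf4 region 1, from 55527653 to 55528111, open in 53 cells (12.8%, 9.71% to 16.4%), and Klf4 region 2, from 55528734 to 55529186, open in 38 cells (9.16%, 6.56% to 12.4%). Region 2 was the least open of all 10 members and starts 623 bp after region 1 ends. The interval of region 4 lies above those of the other 3 Klf4 regions, whose intervals overlap each other. A cell with signal at Klf4 mostly had it in 1 region: 33.01% of all cells were open at 1 of the 4, 8.92% at 2, 4.10% at 3 and 1 cell at all 4.

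At Sall4 the most widely open region was Sall4 region 4, on chromosome 2 from 168592225 to 168592881, open in 93 cells (22.4%, 18.5% to 26.7%) at 0.0608 to 2.54 fragments with a median of 1. Sall4 region 1, from 168566752 to 168567997, is the widest member at 1245 bp and was open in 73 cells (17.6%, 14.05% to 21.6%). It held more than 1 fragment in 10 cells, or 13.7% of those open there, the lowest such percentage of the 10 regions. Sall4 region 2, from 168587580 to 168588338, was open in 54 cells (13.0%, 9.93% to 16.6%), and Sall4 region 3, from 168590600 to 168591094, in 51 cells (12.3%, 9.29% to 15.8%). The intervals of regions 4 and 1 overlap, while that of region 4 lies above those of regions 2 and 3. In 28.2% of all cells 1 of the 4 was open, in 14.2% 2, in 2.89% 3 and in 0 cells all 4.

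Depth moved with all of these shares. Among cells with at least the median number of open regions, members were open in 10.6% to 36.5% of cells, against 5.80% to 18.4% in the shallower cells. Over all regions of the table the median was 21.2% in the deeper cells and 7.73% in the shallower ones. Members differed in how far they followed depth. Klf4 region 3 was open in 48 deeper cells (23.1%, 17.5% to 29.4%) and in 13 shallower cells (6.28%, 3.39% to 10.5%), a ratio of 3.67. Klf4 region 2 was open in 22 deeper cells (10.6%, 6.75% to 15.6%) and in 16 shallower cells (7.73%, 4.48% to 12.2%), a ratio of 1.37. Against the number expected from depth and region frequency, Klf4 region 2 was open in 0.786 times the expected deeper cells and in 1.60 times the expected shallower cells. The fit matches the total of each region, so a low ratio in deeper cells forces a high ratio in shallower ones. The 2 ratios are thus 1 observation, on the most extreme of the 10 regions. For the other 9 regions these ratios lay between 0.887 and 1.08 in deeper cells and between 0.788 and 1.30 in shallower cells. Thinned to 1500 open regions per cell, which left out 33 cells with fewer, members had a median share of 5.86%, against 4.96% over all regions.

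Cells were divided into 3 clusters by k-means on the 14 autosomes that hold none of the windows, so that no member region helped to define a cluster. No annotation on mm9 was used, and clusters keep numbers. Cluster 1 held 50.2% of the clustered cells, cluster 2 held 25.6% and cluster 3 held 24.2%, or 100 cells, with medians of 3378, 4986.5 and 3797 open regions per cell. Clusters made in the same way on the 5 chromosomes that hold the windows matched them with an adjusted Rand index of 0.761, where 1 is the same grouping. Other settings matched the 3 clusters less closely. The index was 0.476 with 2 clusters, 0.549 with 4 clusters and 0.341 with the first component kept. A difference was counted when the shares of open cells in the cluster and outside it differ by a factor of 2 or more and their exact intervals are apart. This count over the 6590 regions on those 5 chromosomes gives the background.

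In cluster 3, 2 members were higher, where 8.74% of the background regions were, and 1 was lower, where 13.7% were, so the counts say nothing particular about these loci. The 3 regions were Klf4 region 2, Sall4 region 2 and the Esrrb region. In cluster 1, 2 members were lower, where 13.2% of the background were, and 0 were higher, where 1.52% were. In cluster 2, 0 members were counted in either direction, where 15.1% of the background were higher and 0.971% lower. With shares divided by those expected from depth, cluster 3 had 2 members counted above (background 9.1%) and 1 below (12.3%) the other cells. Cluster 1 then had 1 above (4.52%) and 2 below (7.22%), and cluster 2 had 0 above (7.69%) and 0 below (4.11%).

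Klf4 region 2 had the largest difference among the members. It was open in 25 cells of cluster 3 (25%, 16.9% to 34.7%), against 13 of all other cells (4.14%, 2.22% to 6.98%), a ratio of 6.04. In the background 3.35% of regions had a ratio at least as large. It was open in 7 cells of cluster 1 (3.37%, 1.36% to 6.81%) and in 6 cells of cluster 2 (5.66%, 2.11% to 11.9%). The neighbouring Klf4 region 1 was open in 13 cells of cluster 3 (13%, 7.11% to 21.2%), against 40 other cells (12.7%, 9.26% to 16.9%), a ratio of 1.02. The difference between these 2 neighbours was not tested. Klf4 region 4 was open in 36% of cluster 3 (26.6% to 46.2%), against 24.8% of the other cells (20.2% to 30.004%), with overlapping intervals.

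Sall4 region 2 was open in 24 cells of cluster 3 (24%, 16.02% to 33.6%), against 30 other cells (9.55%, 6.54% to 13.4%), a ratio of 2.51. In the background 8.04% of regions had a ratio at least as large. It was open in 20 cells of cluster 2 (18.9%, 11.9% to 27.6%) and in 10 cells of cluster 1 (4.81%, 2.33% to 8.66%), so that cluster 1 stood apart from both other clusters. Sall4 region 1 was open in 27% of cluster 3 (18.6% to 36.8%), against 14.6% of the other cells (10.9% to 19.05%), with intervals that narrowly overlap. Sall4 region 4, the most widely open of the locus, was at 21% in cluster 3 (13.5% to 30.3%), against 22.9% in the other cells (18.4% to 27.98%).

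Esrrb went the other way. Its region was open in 8 cells of cluster 3 (8%, 3.52% to 15.2%), against 74 other cells (23.6%, 18.98% to 28.7%), a ratio of 0.339. In the background 15.6% of regions had a ratio as low or lower. In cluster 1 it was open in 53 cells (25.5%, 19.7% to 31.97%), against 29 of the other cells (14.1%, 9.64% to 19.6%), a ratio of 1.81 that became 2.31 when shares were divided by those expected from depth. The direction depended on the clustering. In the cluster that overlaps cluster 1 most, the ratio was 2.93 with 2 clusters, 0.575 with 4 clusters and 0.587 with the first component kept. Such a match is partial: the 4 clusters include 1 of 85 cells that was matched to none of the 3. With the first component kept, 60.4% of the background were counted in the cluster matched to cluster 1. The Esrrb ratio was then 2.75 in the cluster that overlaps cluster 2 most. What moved the ratio was not tested. The Esrrb region was the member counted as higher in cluster 1 on depth-scaled shares. The region in the Pou5f1 window was open in 30.2% of cluster 2 (21.6% to 39.9%), against 17.2% of the other cells (13.2% to 21.9%). These intervals overlap, and the ratio of 1.75 fell to 1.27 when depth was divided out. No member was at 0 in any cluster.

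Sample titles carry numbers, with no meaning stated, along which cluster sizes vary, so the 3 regions were read again within 4 consecutive sets of title numbers. Cluster 3 held 37, 39, 12 and 12 cells of sets 1 to 4. Klf4 region 2 was open in 8, 9, 4 and 4 cells of cluster 3, against 1, 4, 5 and 3 of the 67, 64, 92 and 91 other cells, a higher share in each of the 4 sets. The Esrrb region was open in 3, 4, 1 and 0 cells of cluster 3, against 15, 10, 29 and 20 of the other cells, a lower share in each set. Sall4 region 2 was open in 11, 6, 3 and 4 cells of cluster 3, against 3, 11, 7 and 9 of the other cells. Its share was higher in cluster 3 in 3 of the 4 sets and in set 2 was 15.4%, against 17.2% in the other cells. The 3 regions were picked for their difference in all these cells together, so the sets describe where it lies and are no independent support. Of the other 7 members, Klf4 region 4 and Sall4 region 1 were also higher in cluster 3 in all 4 sets, and the remaining 5 were higher in 1 to 3 sets.

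**Figure D3:**
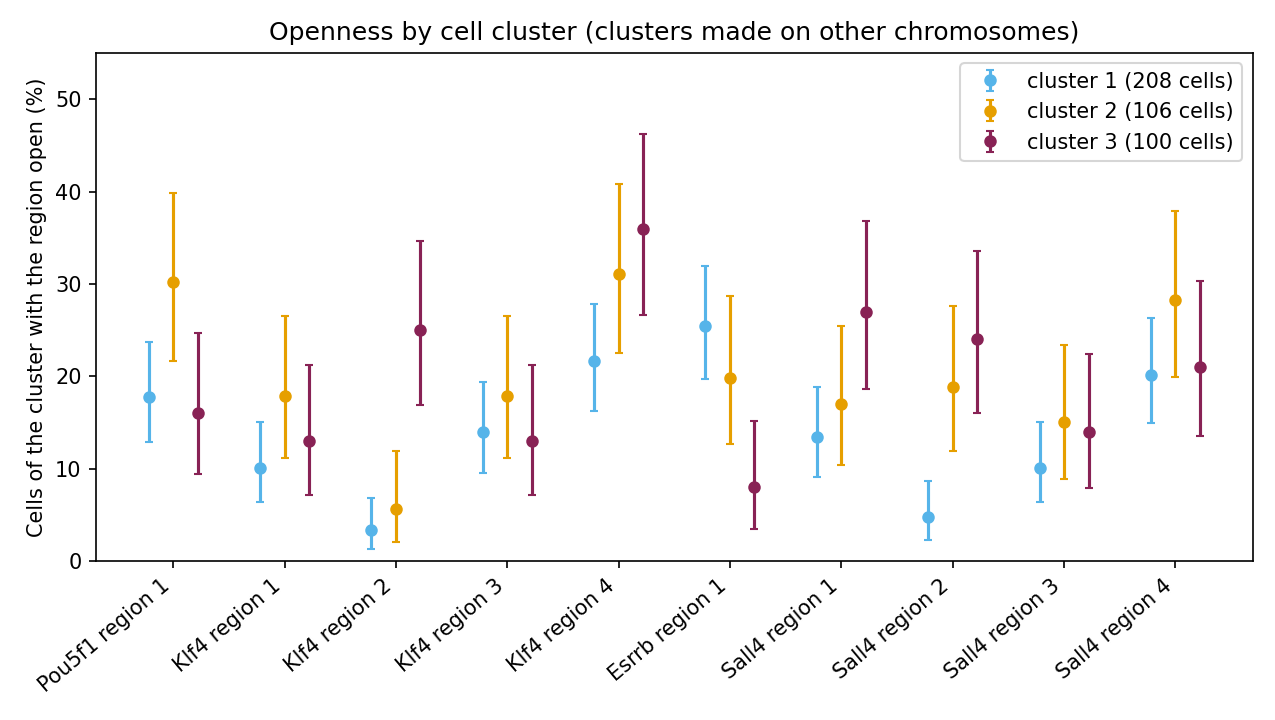
Share of the cells of clusters 1, 2 and 3 in which each member region was open (vertical axis, percent), with exact 95% intervals as bars. Klf4 region 2 reaches 25% in cluster 3 and at most 5.66% in the others, and the Esrrb region 8% in cluster 3 and 25.5% in cluster 1.

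Summed over a window, any Klf4 region was open in 60% of cluster 3 (49.7% to 69.7%), against 42.04% of the other cells (36.5% to 47.7%). Any Sall4 region was open in 59% of cluster 3 (48.7% to 68.7%), against 41.1% of the other cells (35.6% to 46.7%). The ratios were 1.43 and 1.44, and 1.42 and 1.43 with expected depth divided out. For Sall4 the direction turned in 2 alternatives, with a ratio of 0.987 when more than 1 read pair was required and 0.957 in set 2 of the title numbers. The mean number of open members per cell was 1.97 in cluster 3, 2.02 in cluster 2 and 1.41 in cluster 1, where depth and region frequency give 1.65, 2.15 and 1.49.

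The fit matches the open cells of each region, so the mean number of open members per cell was fixed in advance. Only the spread over cells could differ, and it lay near that given by depth. Of the 10 regions, 0 were open in 23.6% of cells, 1 in 29.9%, 2 in 21.7% and 3 in 12.05%, where depth and region frequency alone give 23.7%, 28.7%, 21.9% and 13.4%. At least 5 were open in 24 cells (5.78%, 3.74% to 8.48%), where 21.7 were expected, and the highest number was 8, in 1 cell. By locus, 35.7% of cells were open at 1 of the 4, 28.2% at 2, 10.4% at 3 and 2.17% at all 4. The expected shares were 34.4%, 27.1%, 12.1% and 2.66%. The fit does not match whole windows: Klf4 and Sall4 were open in 0.971 and 0.951 times the expected cells. This raises the expected shares at 3 and 4 loci, so the lower observed shares there are not read as a result.

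**Figure D4:**
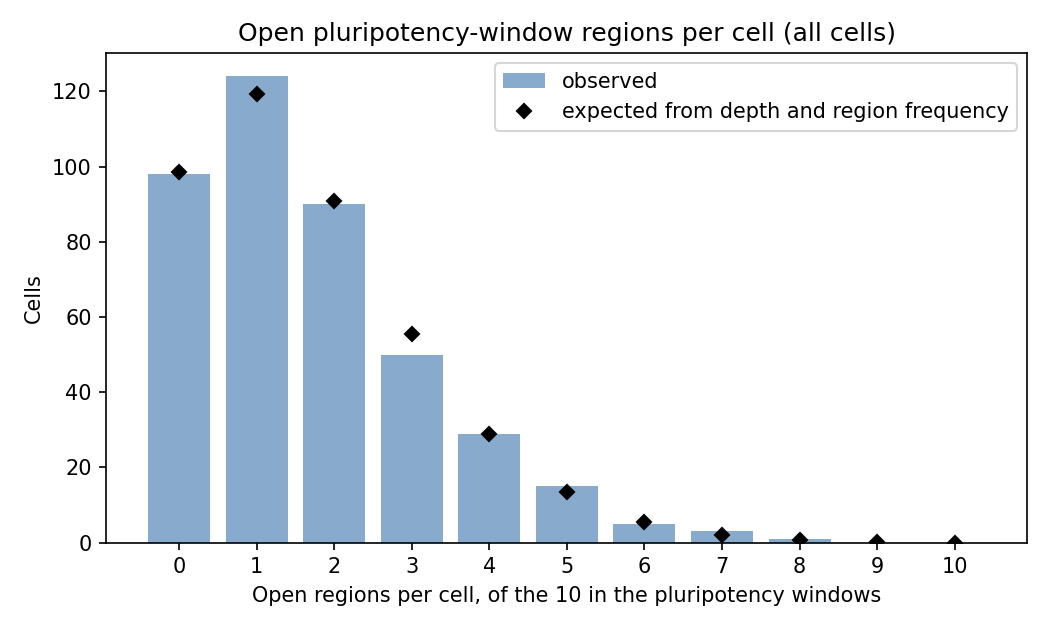
Number of cells (vertical axis) by how many of the 10 member regions were open (horizontal axis). Bars are observed cells and diamonds are the cells expected from each cell's depth and each region's frequency. Observed and expected numbers lie close together at each count, and their means are equal by the make of the fit.

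Pairs of loci lie on different chromosomes. Besides the depth of the cell they share its cluster, which the expected numbers leave out. Klf4 and Sall4 were open together in 25.5% of cells, where 26.7% were expected, a ratio of 0.958 (counting interval 0.784 to 1.16). The fit matches single regions and not whole windows. Taken alone, the Klf4 window was open in 0.971 times the expected cells and the Sall4 window in 0.951 times. This lowers the ratio of each pair with Klf4 or Sall4, so a ratio below 1 does not show that such loci open together less often. Expected numbers with this corrected were not computed. The lowest of the 6 ratios was that of Klf4 and Esrrb, with 37 cells where 48.2 were expected (0.767, 0.540 to 1.06). The highest was that of the Pou5f1 window and Esrrb, with 23 cells where 22.3 were expected (1.03, 0.654 to 1.55). All 6 intervals include 1. Within the Klf4 and Sall4 windows, 9 of 12 pairs of regions had ratios above 1, with a median of 1.10 and a range of 0.738 to 1.59, and each of the 12 intervals includes 1. Among the 33 pairs of regions from different loci the median was 1.001, and 1 interval lay below 1. That pair was Klf4 region 2 and the Esrrb region, open together in 3 cells where 10.2 were expected (0.293, 0.0604 to 0.855). It is 1 of 33 intervals, not adjusted for their number, and some such intervals are expected to miss 1 by chance. The expected number takes in depth and region frequency but not the clusters, and these regions differed in opposite directions in cluster 3. Klf4 region 2 was open in 25% of cluster 3, against 4.14% of the other cells. The Esrrb region was open in 8%, against 23.6%. The pair is therefore not separate from the cluster result, and whether the clusters account for the low number was not tested.

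**Figure D5:**
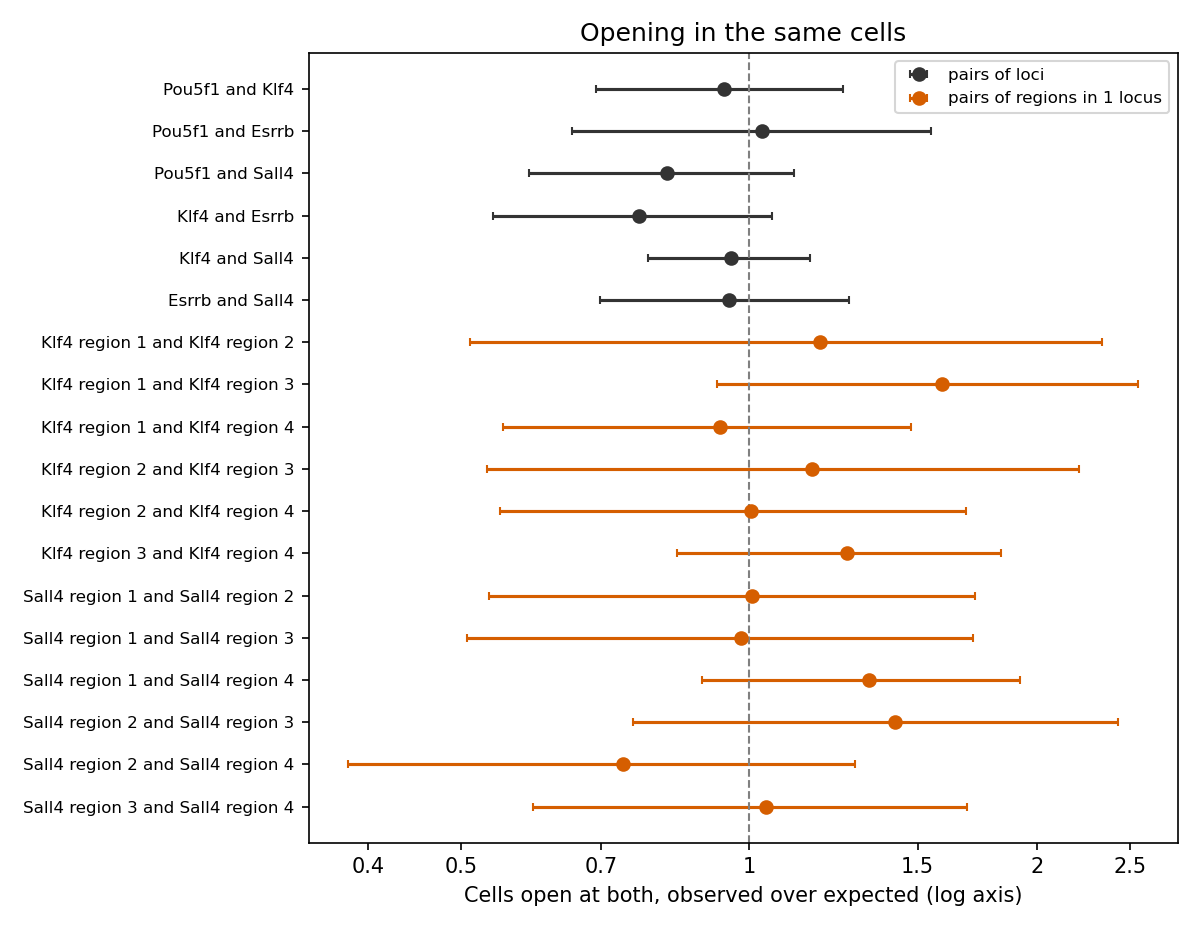
Cells open at both members of a pair, observed over expected (horizontal axis, logarithmic), for the 6 pairs of loci and the 12 pairs of regions within 1 locus, with exact Poisson intervals as bars. All 18 intervals include 1, the dashed line. The expected cells are too many for Klf4 and Sall4 as whole windows, which lowers the pairs of loci that include them.

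Over the whole table, the regions on other chromosomes whose depth-corrected values followed each locus most closely had correlations of 0.195 to 0.289 over all cells. For Klf4 these lie on chromosome 5 from 148564427 to 148564876 (0.289), chromosome 19 from 4436248 to 4436661 (0.275) and chromosome 15 from 58264075 to 58264604 (0.252). The first was open in 38 cells, of which 29 were open at Klf4. For Sall4 the closest lies on chromosome 9 from 108204244 to 108204438 (0.255), for Esrrb on chromosome 2 from 180836474 to 180837447 (0.278) and for the Pou5f1 window on chromosome 1 from 61762664 to 61763265 (0.207). Each is the highest of many values, in sparse data, and 99% of the regions on other chromosomes had correlations under 0.122 for the Pou5f1 window and under 0.154 for Klf4. The values describe these cells and carry no test.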

How the data were processed

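The deposited table gives a whole number per region for each of 415 cells. The values are deposited signal in no stated unit: 37.6% of those above 0 equal 148 and 51.1% are multiples of 74, the pattern of aligned bases summed over read pairs, and signal was divided by 148 to give fragments (791 to 25069 per cell). MACS2 and mm9 are named in the submitters' processing notes, with no role; the aligner, duplicate removal and choice of regions were not given. Counts had been assumed in planning, and no count test was used. Expected openness was fitted as 1 − exp(−region rate × cell rate) over the whole table. The fit was tried on data simulated from the same fitted model, which cannot show misfit to the real cells. Clusters used the 414 cells with at least 1000 fragments: term frequency-inverse document frequency (scaled by 10000), components 2 to 10 of a singular value decomposition, and k-means with 50 starts (Python 3.11.15, SciPy 1.17.1, scikit-learn 1.9.0). Members, lists and the number of clusters were chosen with earlier results of these data known, and all member regions are named. Other pluripotency genes and naming of clusters needed an mm9 annotation and were not run. Tiles of window length were added after seeing the data.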

Additional observations from a re-analysis of the deposited data

How the results depend on the processing

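Shares of open cells moved with depth and with what counts as open. With more than 1 read pair required, any region of Klf4, Sall4, Pou5f1 and Esrrb was open in 15.2%, 11.1%, 6.27% and 7.23% of cells, in deeper cells in 61.1%, 58.2%, 30.8% and 28.4%, and after thinning in 20.4%, 21.9%, 7.01% and 6.89%. With the most widely open region alone, Klf4 and Sall4 gave 27.5% and 22.4%. In the 4 sets of title numbers, Klf4 was at 40.4% and 51.5% in sets 3 and 4, Esrrb at 13.5% and 28.8% and Sall4 at 54.8% and 38.5% in sets 2 and 3. Narrower or wider windows moved no share beyond its interval. No paired analysis was possible because all cells form 1 group and no test was made.

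The number of members counted as different in cluster 1, 2 in the report, was 4 with 2 clusters, 4 with 4 clusters, 8 with the first component kept, 1 with more than 1 read pair required, 0 after thinning and 0 within each title set. The same counts took in 22.4%, 27.3%, 60.4%, 5.57%, 3.2% and 1.58% to 3.6% of the background regions, a background added after seeing the data, so the 8 are not read as particular to these loci. For cluster 2, 0 in the report, it was 5 with the first component kept, where 59.7% of the background were counted. With 2 clusters, clusters 1 and 2 fall into the same one, and the 4 members are the same comparison. For cluster 3, 3 in the report, it was 0 after thinning, 1 with more than 1 read pair required, and 0, 0 and 1 within sets 2, 3 and 4, which hold fewer cells, where 6.87%, 7.12%, 6.51%, 2.19% and 2.46% of the background were counted. The ratio of Klf4 region 2 in cluster 3 over other cells lay between 3.38, after thinning, and 25.1, with more than 1 read pair required (8 cells against 1 cell), in the 10 alternatives, and that of the Esrrb region between 0, with 0 of 12 cells in set 4, and 0.656. Sall4 region 2 lay between 0.895, in set 2, and 6.64, in set 1. Some directions depended on the setting. In the cluster that overlaps cluster 1 most, the ratio of Esrrb was 2.93 with 2 clusters. It turned to 0.575 with 4 clusters, where a cluster of 85 cells was left unmatched, and to 0.587 with the first component kept. The ratio of any Sall4 region in cluster 3 turned to 0.987 with more than 1 read pair required and 0.957 in set 2. The cause was not tested.

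Ratios of cells open at both loci moved beyond their interval for the Pou5f1 window with Klf4, Esrrb and Sall4 when more than 1 read pair was required (1.38, 1.62 and 1.25, from 10, 6 and 7 cells). They also did so for Klf4 with Esrrb and Esrrb with Sall4 in set 2 (0.501 and 0.584), and for Klf4 with Sall4 in sets 2 and 3 (1.20 and 0.679). Sparse signal, with a median of 1 fragment in open cells at nearly all members, limits every statement on single cells.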
